A study of Mus musculus with 2 samples.

Results

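Transfer RNA (tRNA) genes were described here as 1 group, by amino acid, by anticodon, by copy number and by their arrangement along the chromosomes. The group held all 403 genes that the RefSeq annotation of GRCm38.p6 classes as tRNA on the assembled chromosomes, of 49595 annotated genes of every kind there. A gene was said to carry a peak when a peak of the Usp16 list overlapped, by 1 bp or more, the gene or the 1 kb to either side of it. The peaks themselves thus defined which genes carry one, so all counts below describe this list and none was tested.

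The list came from chromatin of ckit and sca1 positive bone marrow cells, the fraction that holds blood stem and progenitor cells, immunoprecipitated with an antibody against Usp16, which removes ubiquitin from histone H2A. The study's other library was an IgG immunoprecipitation from such cells. Both libraries carried the genotype Mx1 Cre:Usp16loxp/loxp, in which an interferon-inducible Cre can delete Usp16. The labels do not say whether Cre was induced, so the state of Usp16 in these cells is not known. There was 1 library per antibody, the number of mice behind each was not given, and IgG values were not analysed here. The list does not measure expression, so the sorted cell type could not be checked against its markers.

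A tRNA gene is transcribed by RNA polymerase III from a promoter that lies inside the gene. The transcription factor TFIIIC recognises its A box and B box, and places TFIIIB, which recruits the polymerase. The genome carries many copies of most tRNA genes, some of them alike in sequence and many of them in clusters. The gene symbols give the amino acid in 1-letter code and the anticodon, so that n-TAagc16 is an alanine tRNA gene with the anticodon AGC.

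Sequence was at hand for only a few of the tRNA genes. Of the 10 tRNA genes that touched a RefSeq promoter window of another gene, 6 lay in one with 50 bases or more, and these are printed because the windows hold their letters. They were chosen by their neighbours and do not stand for the 403 genes. Each sequence runs 5′ to 3′ on the strand on which the motif GTTCNANNC was found, with the anticodon of the symbol (first run) and that motif, which spells part of the B box (second run), in capitals.
n-TAagc16, chr13:21222586-21222657, plus strand: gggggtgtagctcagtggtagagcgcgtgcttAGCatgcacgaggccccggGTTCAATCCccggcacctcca
n-TVcac9, chr13:23446142-23446214, minus strand: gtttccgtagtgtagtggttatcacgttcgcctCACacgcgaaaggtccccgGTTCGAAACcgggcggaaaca
n-TTagt9, chr7:35234770-35234843, minus strand: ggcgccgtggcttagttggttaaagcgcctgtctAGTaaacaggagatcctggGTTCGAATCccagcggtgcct
n-TRtcg5, chr7:79466419-79466491, plus strand: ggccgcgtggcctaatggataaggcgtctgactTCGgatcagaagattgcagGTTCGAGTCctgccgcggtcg
n-TLaag4, chr7:120917528-120917598, plus strand, 71 of the gene's 82 bases: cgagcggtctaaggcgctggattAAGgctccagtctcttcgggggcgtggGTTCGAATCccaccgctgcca
n-THgtg7, chr3:96452495-96452556, plus strand, 62 of the gene's 72 bases: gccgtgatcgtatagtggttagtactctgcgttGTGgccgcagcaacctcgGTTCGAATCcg

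The letters of the anticodon stood before the motif in all 6, each preceded by T, as in the anticodon loop of a tRNA. The motif, searched on both strands, occurs in 9.32% of the 32851 promoter windows of 300 bases in the RefSeq table. The first 5 genes carried a peak that covered the gene, and n-THgtg7, for histidine, carried none. The covering peak scored 52.9 at n-TAagc16, 146.5 at n-TVcac9 and 80.1 at n-TTagt9. It scored 123.9 at n-TRtcg5, which lies in the promoter window of Polg, the mitochondrial DNA polymerase gene. n-TLaag4 lies in the promoter window of Polr3e, a subunit gene of RNA polymerase III, and the peak over it, which also counts for Polr3e, scored 77.3 (chr7:120917257-120917878).

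Over the whole group, 151 of 403 tRNA genes carried a peak (37.5%, exact 95% binomial interval 32.7 to 42.4%). The background was 10.3% of all 49595 annotated genes and 18.0% of 21774 protein-coding genes, which are much longer and so offer a larger window. Among other genes of 200 bp or less, whose windows match in size, 156 of 4430 carried a peak (3.52%). By class, the share was 6.32% of snRNA genes, 3.83% of snoRNA genes, 3.34% of miRNA genes and 6.17% of lncRNA genes, which are longer. The interval for tRNA genes lay above each of these shares. Intervals cover counting error only, and since neighbouring genes share peaks they are too narrow.

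The peaks lay on the genes rather than beside them. A peak overlapped the tRNA gene itself in 137 of the 151 genes (34.0% of all 403), against 89 of 4430 other short genes (2.01%). The remaining 14 genes were reached only through the 1 kb flanks, at 221 to 973 bp from the peak. The gene nearest to the limit on the inside was n-TRacg1 (973 bp), and the nearest outside had its closest peak at 1207 bp. Only 5 further genes lay within 2 kb of a peak, and the 252 genes without one were a median of 39.9 kb away from the nearest (quartiles 9.45 and 188.5 kb).

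In all, 88 distinct peaks reached tRNA genes, which is 1.74% of the 5046 peaks on assembled chromosomes. Of these, 51 reached 1 tRNA gene, 21 reached 2, 8 reached 3, 6 reached 4 and 2 reached 5, and no tRNA gene was reached by more than 1 peak. The midpoint of a peak that reached 1 gene lay a median of 77 bp from the centre of the gene, which is about the length of the gene, and in 38 of 51 it lay within 200 bp. In 4 of the 51 it lay farther than 500 bp from the gene centre.

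**Figure D1:**
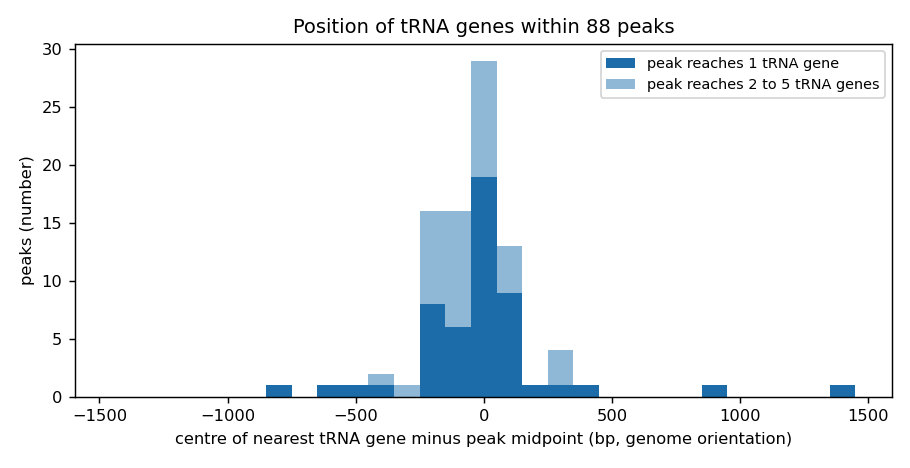
Distance in bp from the midpoint of each of the 88 peaks to the centre of its nearest tRNA gene, counted in bins of 100 bp, with peaks that reach 1 tRNA gene in dark blue and those that reach 2 to 5 in light blue. In 69 of 88 peaks the distance is 200 bp or less, and the largest is 1379.5 bp.

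The score, the peak caller's own value, was at least 50 in the list. Peaks at tRNA genes had a median score of 88.4 (quartiles 70.2 and 122.0), against 69.6 (57.8 and 96.0) for the other 4958 peaks, and 74.1 for the 2434 other peaks at protein-coding gene ends. Among peaks at or above the list's median score, the difference in medians between tRNA peaks and other peaks fell to 5.85 (interval -0.60 to 15.1), against 18.8 in the whole list. The highest tRNA score, 290.5, was rank 99 in the list, so the strongest peaks of the list lay elsewhere. The tRNA peaks were also wide, with a median of 1043.5 bp against 679.5 bp for the other peaks. Other peaks at protein-coding gene ends had a median width of 785.5 bp. Of the tRNA peaks, 47 of 88 (53.4%) were 1000 bp or wider, against 877 of 4958 other peaks (17.7%). Width followed the number of genes reached, which is in part so by construction, since a wider peak can overlap the windows of more genes. The median was 870 bp for peaks that reached 1 tRNA gene, 1163 bp for 2, 1475.5 bp for 3 and 1923 bp for 4 or 5. The median score did not follow it, at 84.6, 123.0, 89.8 and 88.5 in the same order.

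Of the 88 peaks, 32 also lay within 1 kb of an end of a protein-coding gene, and 37 were within 1 kb of no annotated gene end other than that of a tRNA gene. These 37 peaks had a median score of 84.2 and a median width of 1048 bp. The tRNA peaks with a coding gene end had a median score of 97.1, and those without one had 86.9. Coding genes that shared a peak with a tRNA gene included the circadian clock gene Per1, the arginine methyltransferase gene Prmt5 and the proteasome subunit genes Psma3 and Psmb3.

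The highest-scoring peak covered n-TFgaa3 and n-TNgtt7, for phenylalanine and asparagine, beside Ndufs7, a gene of respiratory complex I (score 290.5, chr10:80248668-80249707). The next covered n-TEctc10 and n-TLcaa3 (187.8, chr11:58301678-58302912), with no coding gene end within 1 kb. The third and the sixth, of 184.9 and 162.8 on chromosome 3, missed n-TNgtt11 and n-TNgtt13 by 221 and 300 bp and also reached other genes, in the second case the U1 snRNA gene Rnu1b6. The fourth covered n-TYgta9 and n-TAagc15 at Agbl5 (178.0), and the fifth n-TSgct7 at Knl1, a kinetochore gene (165.8). The other 4 of the 10 highest reached no coding gene end. They were a peak of 158.0 at n-TLaag8, n-TPagg4 and n-TTtgt3, 148.6 at n-TLcag9, n-TDgtc5, n-TGtcc3 and n-TEctc6, 146.5 at n-TVcac9 and n-TRacg5, and 145.2 at n-TKctt26 and n-TKctt25.

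Every amino acid but histidine had at least 1 gene with a peak. The share of genes with a peak was highest for arginine (16 of 24, 66.7%), serine (14 of 22, 63.6%), proline (10 of 16, 62.5%), leucine (15 of 25), aspartate (9 of 16, 56.3%) and threonine (9 of 17, 52.9%). For tyrosine it was 5 of 10, for glycine 13 of 28, for asparagine 6 of 13, for methionine 7 of 16, for phenylalanine 3 of 7 and for glutamate 8 of 20. These 12 families all lay above the 37.5% over all tRNA genes.

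Tryptophan stood close to that value (3 of 8). Lower shares were found for valine (8 of 22), alanine (10 of 33), isoleucine (4 of 16) and lysine (6 of 26). Glutamine had 3 of 16 (18.8%), cysteine 2 of 57 (3.51%, interval 0.43 to 12.1%) and histidine 0 of 11, an upper 95% bound of 28.5%. Most of these intervals are wide and overlap one another. The cysteine interval lies below those of many families, among them arginine (44.7 to 84.4%), glycine (27.5 to 66.1%) and alanine (15.6 to 48.7%). But families share clusters and peaks, so the order of neighbouring families cannot be read as a difference. The symbols do not tell initiator from elongator methionine genes, and no symbol in the table names a selenocysteine or suppressor tRNA.

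**Figure D2:**
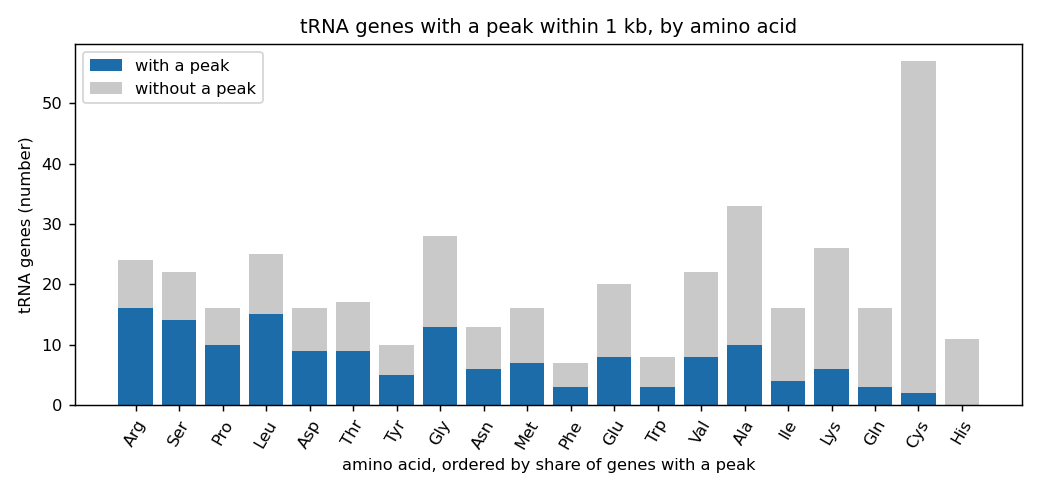
Number of tRNA genes with a peak within 1 kb (blue) and without one (grey) for each of the 20 amino acids, ordered by the share with a peak. Arginine leads with 16 of 24 genes, while cysteine, the largest family, has 2 of 57 and histidine 0 of 11.

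The 48 anticodons showed the same spread at a finer level. At least 1 gene had a peak in 42 anticodons, and in 38 of these other copies had none, so genes with the same anticodon mostly divided. Every copy carried a peak in 4 anticodons: Arg-ACG (6 of 6), Ser-CGA, Ser-TGA and Val-TAC (3 of 3 each). None did in His-GTG (10 genes), Lys-TTT (2 genes) and the 4 anticodons with a single gene, which are Gly-ACC, His-ATG, Ile-TAT and Ser-GGA. Among the 33 anticodons with 5 or more genes, Arg-ACG was the highest and His-GTG the lowest, with a median share of 46.2%.

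The 6 Arg-ACG genes lay on 4 chromosomes and were reached by 6 different peaks. On chromosome 13, n-TRacg5 had a peak of score 146.5, n-TRacg4 one of 73.8 and n-TRacg1 one of 61.0 that missed the gene by 973 bp. The genes n-TRacg6 on chromosome 14 (145.1), n-TRacg3 on chromosome 3 (139.0) and n-TRacg2 on chromosome 9 (121.6) each lay under their peak. With a window of 200 bp or less, 5 of these 6 genes therefore keep one. The Val-TAC genes show the opposite arrangement, since n-TVtac1 and n-TVtac2 share a peak on chromosome 19 (64.2) and n-TVtac3 has its own on X (98.7).

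The 10 His-GTG genes fall into 6 on chromosome 3, 3 on chromosome 2 and 1 on chromosome 4. The nearest peak was 1.29 kb from n-THgtg7 and 1.37 kb from n-THgtg9, both beside the high-scoring chromosome 3 peaks at n-TNgtt11 and n-TNgtt13. For the others the distance was between 3.53 kb (n-THgtg1) and 314.0 kb (n-THgtg10). A window of 5 kb would thus count n-THgtg7, n-THgtg9, n-THgtg1 and n-THgtg2 (4.45 kb).

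Within an amino acid, anticodons also divided. For alanine, 6 of 13 AGC genes, 3 of 11 TGC genes and 1 of 9 CGC genes carried a peak. For arginine the shares ran from 2 of 5 TCG genes to all 6 ACG genes. For glutamate they were 6 of 12 CTC genes and 2 of 8 TTC genes, and for lysine 6 of 24 CTT genes and 0 of 2 TTT genes. Leucine was more even, from 2 of 4 CAA genes to 2 of 3 genes each for TAA and TAG.

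By the first anticodon base, which pairs with the last base of the codon, 34 of 71 genes with A carried a peak (47.9%), 50 of 128 with C (39.1%), 36 of 136 with G (26.5%) and 31 of 68 with T (45.6%). The low value for G came from cysteine. Without the cysteine genes, a setting chosen after the data were seen, it was 34 of 79 (43.0%), and the 4 bases lay between 39.1 and 47.9%.

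Anticodons with more gene copies had more copies with a peak, but not a higher share of them. Over 48 anticodons, Spearman's rho between copies and copies with a peak was 0.64 (Pearson's r 0.33), and between copies and the share with a peak it was -0.18 (r -0.23). Without cysteine, over 47 anticodons, the values were 0.69 (r 0.72) and -0.16 (r -0.09). These are descriptions over points that share peaks and 1 list, and a larger family can hold more copies with a peak.

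Grouped by copy number, 17 of 27 genes carried a peak in anticodons with 1 to 3 copies (63.0%), 30 of 56 with 4 to 6 (53.6%), 32 of 78 with 7 to 9 (41.0%) and 64 of 161 with 10 to 16 (39.8%). Only Lys-CTT (24 copies) and Cys-GCA (57 copies) were larger, with 8 of 81 (9.88%). The intervals of neighbouring groups overlap up to 16 copies, and the last group rests on those 2 families. In the smallest group, 5 of 12 anticodons had no gene with a peak.

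**Figure D3:**
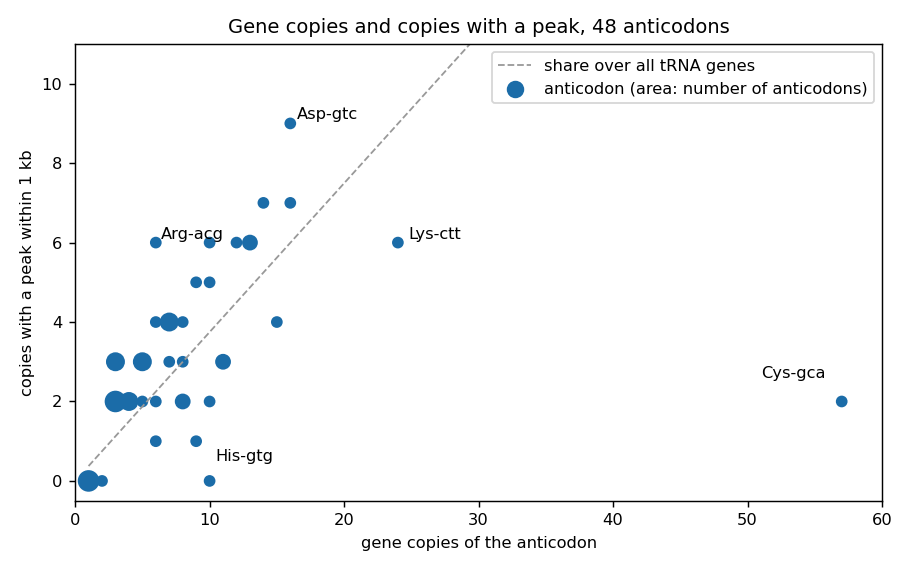
Gene copies of each of the 48 anticodons (x axis) and the number of those copies with a peak within 1 kb (y axis), with point area scaled to the number of anticodons at that place and a dashed line at the share over all tRNA genes. Arg-ACG has all 6 copies with a peak, His-GTG 0 of 10 and Cys-GCA 2 of 57.

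Clustering along the chromosome went with a higher share. Joined over gaps of up to 2 kb, the 403 genes formed 80 clusters of 2 to 6 genes, and 187 genes stood alone. In clusters 102 of 216 genes carried a peak (47.2%, interval 40.4 to 54.1%), against 49 of 187 single genes (26.2%, 20.1 to 33.1%). By size, the share was 44.9% in clusters of 2 (44 of 98), 21 of 42 in clusters of 3, 57.5% in clusters of 4 and 38.9% in clusters of 5 or 6. Without cysteine it was 55.6% in clusters and 29.5% of single genes.

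This difference of 21.0 percentage points depends in part on how far genes are joined and on the 1 kb flanks. It was 32.7 points with gaps of up to 1 kb and 6.52 points (interval -3.88 to 16.9) with gaps of up to 10 kb. With peaks at or above the median score it was 10.6 points. The flanks can count a clustered gene through a peak at its neighbour, and without them the difference was 15.5 points (interval 6.46 to 24.6). Counted once each, 39 of 80 clusters had a gene with a peak (48.8%, interval 37.4 to 60.2%), against the same 26.2% of single genes, but a cluster spans a larger window and counts through any of its genes, which raises its share by construction.

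By the 1 kb rule, clusters were nearly always reached whole or not at all. Every gene carried a peak in 34 of the 80 clusters, none did in 41, and only 5 clusters were divided. This is in part so by construction, since genes joined over gaps of up to 2 kb can count the same peak through their 1 kb flanks. Without the flanks, 89 of the 216 clustered genes carried a peak in place of 102. Some of the 34 whole clusters would then be divided. Examples are those of n-TDgtc4, n-TPcgg3 and n-TRacg1, genes that lay 537, 312 and 973 bp from a peak over other genes of their cluster. How many clusters stay whole without the flanks was not counted, so the near absence of divided clusters holds for the 1 kb rule only. The clusters mixed amino acids in 50 cases, of which 32 had a peak, and held 1 amino acid in 30 cases, of which 7 had one. Cysteine alone made up 16 of these 30, 1 of them with a peak, and of the remaining 14 clusters 6 had one. The 7 clusters of 5 or 6 genes show the contrast. All 5 genes of the chromosome 1 cluster from n-TEctc5 to n-TGgcc12 lay at 1 peak, as did 5 of 6 genes of the chromosome 19 cluster from n-TFgaa2 to n-TVtac2 and 4 of 5 of the chromosome 13 cluster from n-TGgcc6 to n-TQttg5. The other 4 clusters had no peak, namely a second on chromosome 13 (n-TMcat14 to n-TLaag5), that on chromosome 3 (n-TNgtt12 to n-TEctc13) and 2 more on chromosome 1.

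Those chromosome 1 clusters share gene order and nearly the same spacing with the cluster from n-TEctc5 to n-TGgcc12. Each of the 3 units holds 5 genes in the order Glu-CTC, Gly-TCC, Asp-GTC, Leu-CAG and Gly-GCC, and the units follow each other at 7628 and 7614 bp. In the first unit the later genes start 535, 1194, 1820 and 2467 bp after the first gene. In the other two units they start at 542, 1201 and 1827 bp, and the last at 2510 and 2470 bp. The first unit (chr1:171064164-171066701) lay under a single peak of 3930 bp with the low score of 54.9, which also reached the end of Fcgr3, an Fc receptor gene. The other units (chr1:171071792-171074372 and chr1:171079406-171081946) had none. Further on (chr1:171101838-171103114), a cluster of Leu-CAG, Asp-GTC, Gly-TCC and Glu-CTC genes, 4 of these anticodons in the reverse order, had a peak of 148.6.

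The sequences of these units were not compared, and the handling of reads that align to several places is not given in the sources used here. Its part in which gene copies are listed was not tested, here or for the other families.

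The share of genes with a peak also differed with the distance to protein-coding genes. Of 67 tRNA genes within 2 kb of a coding gene end, 56 carried a peak (83.6%, interval 72.5 to 91.5%). The share was 52 of 118 (44.1%) at 2 to 10 kb and 43 of 218 (19.7%, interval 14.7 to 25.6%) farther than 10 kb. Other genes of 200 bp or less showed the same order at lower levels, with 92 of 529 (17.4%), 30 of 899 (3.34%) and 34 of 3002 (1.13%). In each of the 3 classes the interval for tRNA genes lay above that for the other short genes. A peak near both kinds of gene cannot be given to either from this list.

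**Figure D4:**
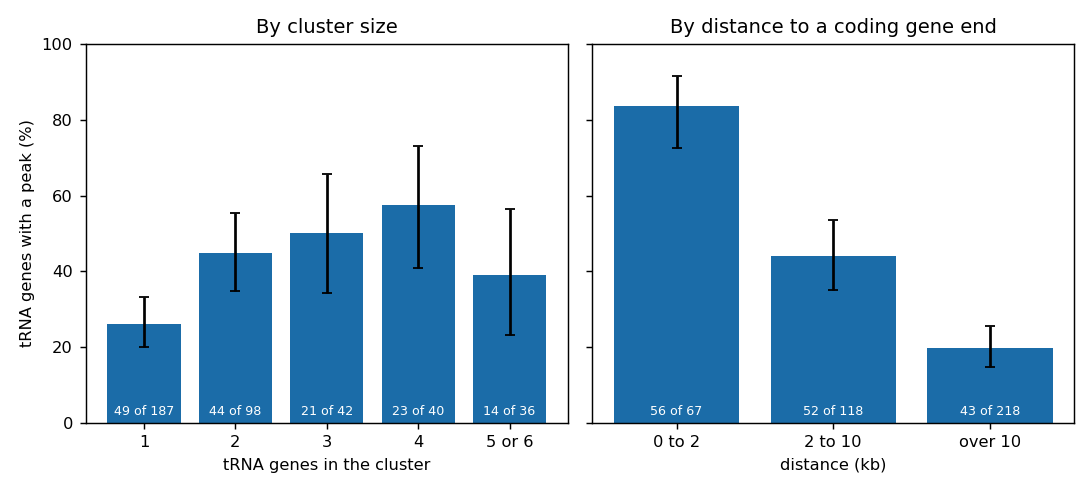
Share of tRNA genes with a peak within 1 kb, in percent, by the number of genes in the cluster (left) and by the distance to the nearest protein-coding gene end in kb (right), with exact 95% binomial intervals as error bars and gene counts in the bars. Single genes stand at 26.2%, and the share is 83.6% within 2 kb of a coding gene end and 19.7% beyond 10 kb.

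Over longer stretches, 7 neighbourhoods held 10 or more genes when genes were joined over gaps of up to 500 kb, a description chosen after the data were seen. Together they held 234 of the 403 genes, of which 66 carried a peak (28.2%). In 24 neighbourhoods of 2 to 9 genes it was 55 of 83 (66.3%), and for 86 genes without a tRNA gene in reach 30 (34.9%). Without cysteine genes the largest neighbourhoods had 66 of 185 (35.7%), those of 2 to 9 genes 53 of 76 (69.7%) and the genes without a neighbour in reach 30 of 85 (35.3%). The neighbourhoods of 2 to 9 genes were thus the highest in both counts, while the other groups overlap in their intervals.

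The 7 differed among themselves over the full range. On chromosome 11 all 18 genes of 11 amino acids carried a peak, through 6 peaks of score 64.4 to 144.2 within 88.2 kb (chr11:69037003-69125248). This stretch also holds ends of Per1 and Hes7, and an end of Ctc1 lies 530 bp outside it, before its first gene n-TIaat5. On chromosome 1, 15 of 25 genes did within 77.6 kb, through 6 peaks of 54.9 to 148.6, and all 10 genes without a peak were those of the 2 units without one. The chromosome 13 neighbourhoods had 18 of 59 genes (chr13:21160785-22050767, 13 peaks) and 13 of 45 (chr13:23270421-23530419, 6 peaks).

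In 3 neighbourhoods few or no genes carried a peak. On chromosome 3, 2 of 25 did (chr3:96322074-96501518), and these were n-TNgtt11 and n-TNgtt13, whose peaks missed the genes. The chromosome 6 neighbourhood (chr6:47978997-48363603) consists of 49 cysteine genes, none with a peak (upper 95% bound 7.25%), while 2 of 4 other tRNA genes of that chromosome had one. Of the 8 cysteine genes elsewhere, n-TCgca54 and n-TCgca55 shared a peak of 50.8, close to the lowest score in the list. On X, 13 genes of alanine and lysine had none (chrX:136195732-136590436), and n-TVtac3 was the only one of 17 tRNA genes on that chromosome with a peak.

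**Figure D5:**
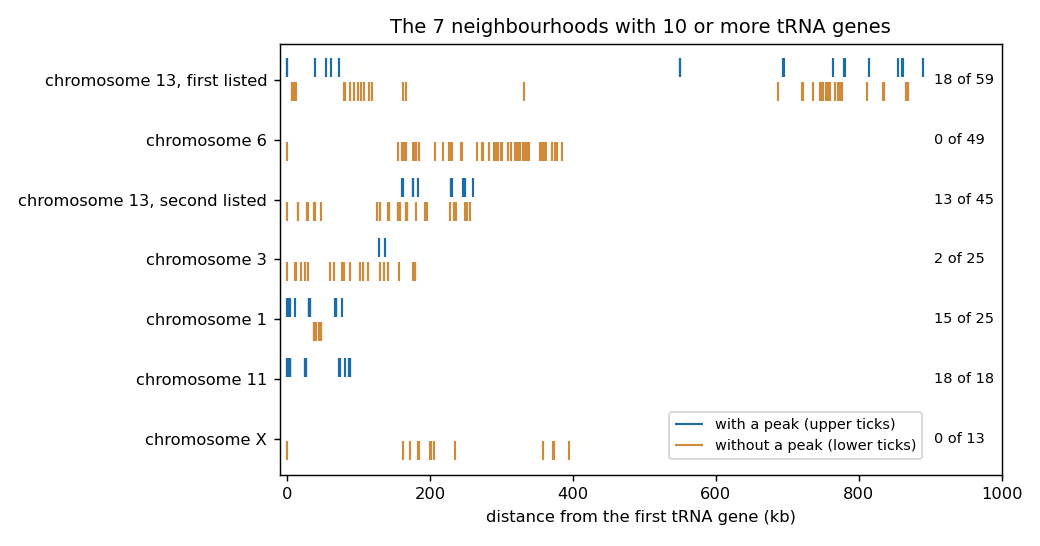
Positions of tRNA genes in the 7 neighbourhoods with 10 or more genes, as the distance in kb from the first tRNA gene, with genes that carry a peak as blue upper ticks and genes without one as orange lower ticks. All 18 genes carry one on chromosome 11, and none of 49 on chromosome 6 or of 13 on X.

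By chromosome, the share ran from 1 of 17 on X and 2 of 53 on 6 to 9 of 11 on 10 and 8 of 10 on 5. Chromosome 11 had 34 of 47 (72.3%) and chromosome 13, with the most tRNA genes, 31 of 105 (29.5%). Genes longer than 76 bp are leucine and serine tRNA genes, which have a long variable arm, or tyrosine, isoleucine and arginine tRNA genes, some of which are known to hold an intron. The Leu-CAA genes were the longest, at 105 to 107 bp, and whether they hold an intron as well was not examined. Of the long leucine and serine genes 29 of 46 carried a peak (63.0%), of the other long genes 8 of 18 (44.4%), and of the genes of 76 bp or less 114 of 339 (33.6%). The last group holds all 57 cysteine genes, of which 2 carried a peak, and this lowers its share. A link between gene length and the share was not tested.

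The genes of the machinery that makes and uses tRNA were set beside the tRNA genes by the same rule, against the 18.0% of protein-coding genes. Of 18 RNA polymerase III subunit genes 10 carried a peak (55.6%, interval 30.8 to 78.5%). They were led by Polr2e (164.0), Polr3a (121.1), Polr3b (104.9) and Polr2l (87.7), while Polr1d and Polr2f had no peak. Polr2e and Polr2l encode subunits shared with other RNA polymerases. A list of 12 genes held those of TFIIIB, TFIIIC and the repressor Maf1, and Gtf3a, the TFIIIA gene, which had no peak. Of these 12, 7 carried a peak (58.3%, interval 27.7 to 84.8%). The highest were the TFIIIC genes Gtf3c6 (190.8) and Gtf3c5 (163.1), the TFIIIB gene Brf2 (96.0) and Gtf3c3 (91.6). The product of Brf2 serves polymerase III genes with external promoters. Bdp1 and Brf1, which encode TFIIIB subunits, had no peak.

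Of 38 genes for tRNA processing and export, 10 carried a peak (26.3%, interval 13.4 to 43.1%), and this interval holds the 18.0% of protein-coding genes. The highest were Rtcb, the tRNA ligase gene (192.8), Adat2, a tRNA deaminase gene (141.3), Rpp38 (121.7) and Pop7 (116.1), both of RNase P, and Adat1 and Adat3 had none. Of 23 genes of cytosolic aminoacyl-tRNA synthetases and their partners 13 carried a peak (56.5%, interval 34.5 to 76.8%). They were led by Qars (336.0), Yars (174.3), Wars (161.7) and Aimp1 (136.8), while Aimp2 and Cars had no peak. The histidine enzyme gene Hars and the cysteine enzyme gene Cars were among the 10 of these 23 genes without a peak, beside 0 of 11 histidine and 2 of 57 cysteine tRNA genes with one. The glutamine enzyme gene Qars had the highest score among these 23 genes, beside only 3 of 16 glutamine tRNA genes with a peak. The leucine and valine enzyme genes Lars and Vars had no peak, beside 15 of 25 leucine and 8 of 22 valine tRNA genes with one. The pairing of enzyme genes and tRNA genes was not tested.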

How the data were processed

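Per the labels, sonication cut the chromatin to pieces near 200 bp. The deposited values are 1 list of peaks, each with a position and a score that the peak caller gave; per the file headers, the authors called peaks with MACS in Galaxy. Bowtie, Picard and build mm10 are named in the submitters' processing notes, without versions. No source used here gives the MACS settings, the role of the IgG library or the read depth. Peaks below a score of 50 are not listed, so a gene without a peak is not shown to be unbound.

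Peak starts were made 1-based. Genes came from RefSeq GRCm38.p6, the assembly that mm10 names. Of 430 tRNA records, 22 mitochondrial ones and 5 on other contigs were left out. The record n-Tcgca44 was read as a cysteine gene. No tRNA gene has an entry of its own in the RefSeq promoter table, so the sequences printed are the parts of tRNA genes inside windows of other genes. Strand was taken from the motif.

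Shares have exact Clopper-Pearson 95% intervals (Python 3.11.15, SciPy 1.17.1). Differences of shares have normal-approximation intervals, and the interval of a median score comes from binomial ranks over the tRNA peaks with the other peaks' median held fixed. Peaks and neighbouring genes are not independent, so these intervals describe counting error only. There are no replicates and no test was made. The overlap step was tested on simulated data. The genes named are every amino acid, the extreme anticodons with 5 or more genes, single-gene anticodons, the 10 highest-scoring tRNA peaks, the clusters of 5 or 6 genes, and up to 4 genes with the highest-scoring peak and 2 without one in each list of pathway genes; others were named after their values were seen. The members and lists were chosen with earlier results of these data known. The alternatives were other score limits, windows, overlaps and joining gaps, and the removal of genes near coding genes or of cysteine genes.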

Additional observations from a re-analysis of the deposited data

How the results depend on the processing

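No alternative changed the sign of a difference, but in 2 cases the interval reached below 0. With peaks at or above the median score only, 26.6% of tRNA genes and 24.7% of clusters, single genes included, carried a peak, the difference between clustered and single genes was 10.6 percentage points, and the difference in median score between tRNA peaks and other peaks was 5.85 (interval -0.60 to 15.1) in place of 18.8. A window of 5 kb gave 44.7% of genes and 40.4% of clusters. Without tRNA genes within 2 kb of a coding gene end the values were 28.3% of genes, 23.7% of clusters and 53 distinct peaks in place of 88. Without cysteine genes 43.1% of genes carried a peak. Joining over 10 kb gave 42.5% of clusters and a difference of 6.52 points (interval -3.88 to 16.9), and joining over 1 kb a difference of 32.7 points. The cause of these shifts was not tested. Windows of 0 and 200 bp, overlap by at least 50% of the peak and use of the midpoint left each of the 5 results within its interval or, for the count of peaks, between 85 and 87. No paired analysis was possible because each antibody has 1 library and only 1 list of peaks was analysed.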

Other observations

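The list held 0 peaks on the mitochondrial genome, which carries 22 further tRNA genes, and 33 peaks on contigs outside the assembled chromosomes, where the 5 tRNA records left out were not compared with peaks. On chromosome 17 n-TGccc7 carried a peak of score 81.3, and the other 11 tRNA genes of that chromosome carried none.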
